A study of Mus musculus with 12 samples.

Results

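Broad sites of histone H3 lysine 27 trimethylation (H3K27me3) that are not bivalent were examined in mouse embryonic stem cells by chromatin immunoprecipitation with sequencing (ChIP-seq). The sites were taken as the class averaged in the authors' table for H3K27me3 at non-bivalent sites. That table gives 1 mean profile per library from -25000 to 25000 bp around the site centres, in 251 bins spaced 200 bp apart, and holds no single site, gene or coordinate. Under an assumed HOMER scaling, the values imply that 10985 sites were averaged, of 36170 entries in the 3 tables used here, where a site may be listed in more than 1 table. The submitters' processing notes name the mouse build mm9, and the labels do not say how the sites were selected.

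The cells were grown with serum and LIF and stably transfected with the vector ppy-cagg-ires-puro. In the control line the vector was empty (vector cells), and in the other line it encoded netrin-1 (netrin-1 cells). H3K27me3 was profiled in 3 libraries of each line, 6 of the 12 libraries of the series, with the same Diagenode antibody. Whether the 3 replicates were separate cultures is not stated in the labels, nor how many transfected clones each line held. The p-values below cover library-to-library spread alone, part of which may be technical. The tables hold no genes, so the cell type and the transgene could not be checked against markers. In a mean profile, more marked sites and a higher level at each site cannot be told apart.

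H3K27me3 is deposited by Polycomb repressive complex 2, whose EZH2 subunit methylates the histone tail. The EED subunit of the complex binds the finished mark, which stimulates methylation of neighbouring nucleosomes and lets the mark spread into broad domains around its points of recruitment. In embryonic stem cells it is best known from CpG-rich promoters of silent developmental genes, many of which also carry H3K4me3 and are then called bivalent. Netrin-1 is a secreted, laminin-related ligand of the DCC and UNC5 families of receptors.

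H3K27me3 was highest at the site centre and fell away on both sides in every library, and it was higher in netrin-1 cells along the whole profile. The highest bin lay at 0 bp in all 6 libraries. There, coverage was 3.48, 3.42 and 3.82 in the vector libraries (replicates 1, 2 and 3). In the netrin-1 libraries, in the same order, it was 5.13, 5.72 and 7.29. The lowest netrin-1 library was thus above the highest vector library. Coverage is given on the authors' scale, as mean fragment coverage per site, and has no unit beyond that scale. In 251 of 251 bins all netrin-1 libraries were above all vector libraries, which is 100% of the bins of this table. The share was also 100% of 801 bins at bivalent H3K27me3 sites in the same libraries, so the separation in every bin does not set the non-bivalent sites apart. In the H3K4me3 libraries at non-bivalent H3K4me3 sites it was 26.5% of 801 bins. Neighbouring bins share fragments and are not independent.

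**Figure D1:**
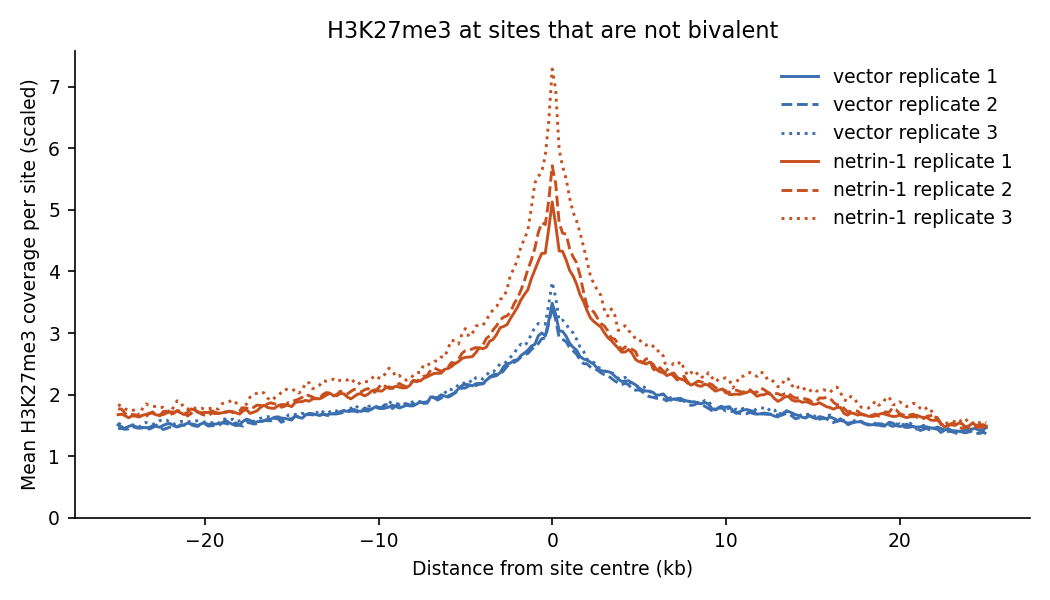
Mean H3K27me3 coverage per site (vertical axis, the authors' scale) against distance from the site centre in kb (horizontal axis), 1 line per library, vector cells in blue and netrin-1 cells in orange. All 6 profiles peak at 0 bp, and the netrin-1 lines, from 5.13 to 7.29 at the centre, lie above the vector lines, from 3.42 to 3.82, and stay above them out to both edges.

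The ratio of total coverage between the lines narrowed with distance. In the innermost 1000 bp, vector replicates 1, 2 and 3 had coverage of 3.05, 2.97 and 3.27. Netrin-1 replicates 1, 2 and 3 had 4.38, 4.84 and 5.96. The group means were 3.10 ± 0.158 and 5.06 ± 0.809 (SD, n = 3 each), a ratio of 1.63. Replicate 3 was the highest library of its line in this range. From 1000 to 2000 bp the means were 2.70 ± 0.106 for vector and 4.03 ± 0.490 for netrin-1 libraries (SD, n = 3 each), a ratio of 1.49. From 2000 to 5000 bp they were 2.31 ± 0.0441 and 3.06 ± 0.239 (SD, n = 3 each), a ratio of 1.33. Farther out the ratio of total coverage was 1.23 from 5000 to 10000 bp and 1.18 from 10000 to 20000 bp. In the outermost range, from 20000 to 25000 bp, coverage was 1.47, 1.45 and 1.49 in the vector libraries and 1.62, 1.63 and 1.72 in the netrin-1 libraries, a ratio of 1.13. In each of these 6 ranges the exact two-sided permutation p was 0.1, the minimum for groups of 3, and it was 0.1 after Benjamini-Hochberg adjustment over the ranges. No comparison of the 2 lines can therefore pass 0.05 with this test.

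The size of the difference and its course with distance depended on the flank. With each library's flank from 20000 to 25000 bp subtracted, the mean log2 difference was 1.04 within 1000 bp, 0.94 from 1000 to 2000 bp and 0.74 from 2000 to 5000 bp. It was 0.65 from 5000 to 10000 bp and 0.73 from 10000 to 20000 bp, so it did not narrow between these last ranges. Without the subtraction the same log2 differences were 0.70, 0.57, 0.41, 0.30 and 0.24 from the centre outwards. The lines did not overlap in these 5 ranges under either measure (exact permutation p = 0.1 each).

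Vector libraries were close to one another and netrin-1 libraries were spread. Netrin-1 replicate 3 was the highest of all 6 libraries in 244 bins, and vector replicate 2 was the lowest in 182 bins. Netrin-1 replicate 3 lay above netrin-1 replicate 2 in 247 bins, and replicate 2 above replicate 1 in 200 bins.

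The coverage by which each netrin-1 library exceeded the vector mean was also a peaked profile. Within 1000 bp the gain was 1.29, 1.74 and 2.86 in netrin-1 replicates 1, 2 and 3. Between 20000 and 25000 bp it was 0.154, 0.158 and 0.250. The gain was thus largest at the centre and remained above 0 in the smallest bin of each library, at 0.0518, 0.0301 and 0.0902. Of the whole gain across the table, 46.5%, 49.2% and 49.2% lay within 5000 bp in replicates 1, 2 and 3. A further 24.5%, 24.8% and 26.0% lay between 10000 and 20000 bp. These 3 gains share 1 vector mean and are given as a description.

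To compare the profiles apart from library scaling, a ratio within each library was taken first, in which any multiplicative factor cancels. No background was subtracted, so this ratio also rises with the height of the centre above an unchanged background. The log2 ratio of coverage within 1000 bp to coverage from 10000 to 20000 bp was 0.90, 0.88 and 0.99 in vector replicates 1, 2 and 3. It was 1.25, 1.36 and 1.53 in netrin-1 replicates 1, 2 and 3. The profile was thus steeper in each netrin-1 library than in any vector library. The means were 0.92 ± 0.055 and 1.38 ± 0.14 (SD, n = 3 each), a difference of 0.46 on the log2 scale (exact two-sided permutation p = 0.1, 0.12 after adjustment over 6 measures of shape).

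Decay was measured on coverage above the flank, that is, after subtracting each library's mean beyond 20000 bp, with both sides averaged. Coverage above the flank fell to 50% of its level within 500 bp at 3290, 3439 and 2778 bp in vector replicates 1, 2 and 3. It reached 50% at 2634, 2272 and 2072 bp in netrin-1 replicates 1, 2 and 3. All netrin-1 libraries fell sooner than all vector libraries, but the gap between vector replicate 3 and netrin-1 replicate 1 was less than 1 bin. Across all 6 libraries, and within each line, this distance was shorter the higher the coverage within 1000 bp. Among vector libraries, replicate 2 had the lowest coverage there (2.97) and the longest distance, and replicate 3 the highest (3.27) and the shortest. Whether width follows height was not tested. The means were 3169 ± 347 bp and 2326 ± 285 bp (SD, n = 3 each; exact permutation p = 0.1, adjusted p = 0.12). On the right side alone the groups overlapped (exact permutation p = 0.2).

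The separation was not kept all the way out. The level of 25% was reached at 6371 to 7729 bp in the vector libraries and at 5166 to 6264 bp in the netrin-1 libraries, again without overlap. The level of 10% was first reached at 12985 to 15063 bp and at 10369 to 13778 bp, and here the lines overlapped. The earliest crossing of each line was a single bin, with the next bin above 10% again. These bins were 9.77% at 13000 bp in vector replicate 3 and 9.71% at 10400 bp in netrin-1 replicate 3. Vector replicate 3 next fell below 10% at 14000 bp, past every netrin-1 crossing, so this overlap rests on its single bin. At 5000 bp from the centre, 38.6%, 38.5% and 34.3% of the central level remained in the vector libraries (replicates 1, 2 and 3) and 31.4%, 28.6% and 26.5% in the netrin-1 libraries. At 15000 bp it was 7.91% to 10.4% in vector libraries and 6.65% to 7.50% in netrin-1 libraries, without overlap. At 20000 bp it was 1.50% to 4.85% and 1.45% to 2.15%, with overlap.

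An exponential decay length, the distance over which coverage above the flank falls by a factor of e, was fitted over the first 10000 bp. Vector replicates 1, 2 and 3 gave 5654, 6033 and 5342 bp. Netrin-1 replicates 1, 2 and 3 gave 5131, 4865 and 4474 bp. The lengths were shorter in netrin-1 cells without overlap, with means of 4823 ± 330 bp against 5676 ± 346 bp (SD, n = 3 each; exact permutation p = 0.1, adjusted p = 0.12). The result depended on the stretch of the profile. Fitted from 2000 to 15000 bp, the decay length was longer in netrin-1 cells by 83.9 bp, with overlapping groups (exact permutation p = 0.8).

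A single decay length did not describe the domain. From 1000 to 5000 bp the fitted length was 5490, 5460 and 4796 bp in the vector libraries (replicates 1, 2 and 3) and 4318, 4065 and 3690 bp in the netrin-1 libraries. From 5000 to 15000 bp it was 7600, 8316 and 8362 bp in the vector libraries and 7752, 8880 and 10030 bp in the netrin-1 libraries. In all 6 libraries the outer stretch decayed more slowly than the inner one, by 1.38 to 1.74 times in vector and 1.80 to 2.72 times in netrin-1 cells. The lines were separate in the inner stretch and overlapped in the outer one. These 2 stretches were chosen after the profiles had been seen, and they are given without a test.

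**Figure D2:**
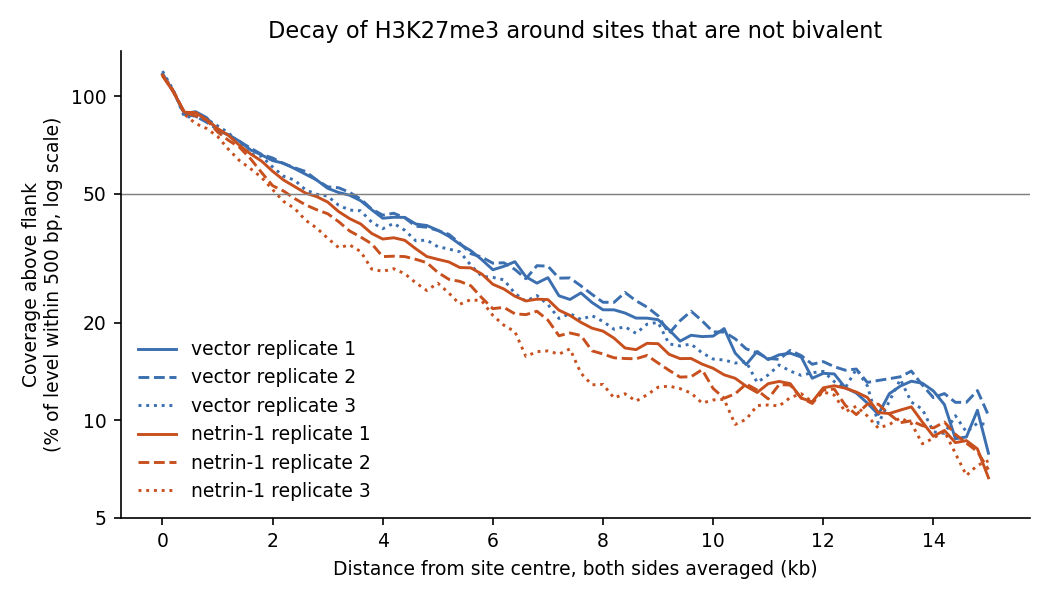
Coverage above the flank, in percent of each library's level within 500 bp (vertical axis, log scale), against distance from the centre in kb with both sides averaged (horizontal axis), 1 line per library and a grey line at 50%. The netrin-1 lines (orange) cross 50% between 2072 and 2634 bp and the vector lines (blue) between 2778 and 3439 bp, and the lines of both colours bend to a slower decay farther out.

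Much of the signal lay more than 5000 bp from the centre, although less than an even profile would hold there. Of the coverage above the flank within 20000 bp, the share between 5000 and 20000 bp was 40.6%, 42.3% and 39.4% in vector replicates 1, 2 and 3. It was 38.0%, 37.6% and 36.8% in netrin-1 replicates 1, 2 and 3. The share beyond 5000 bp was lower in netrin-1 cells by 3.32 percentage points, at 37.5% ± 0.653 against 40.8% ± 1.45 (SD, n = 3 each; exact permutation p = 0.1, adjusted p = 0.12). Most of the shift lay between 5000 and 10000 bp, where the share was 22.5% to 24.05% in vector and 19.3% to 22.4% in netrin-1 libraries. From 10000 to 20000 bp the lines overlapped, with 17.0% to 18.3% and 15.7% to 17.4%. At the centre the order was the opposite. The share within 1000 bp was 19.0%, 18.2% and 20.2% in the vector libraries and 21.3%, 22.4% and 23.8% in the netrin-1 libraries.

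With no flank subtracted, 28.0%, 27.9% and 28.6% of all coverage in the table lay within 5000 bp in vector replicates 1, 2 and 3. The share was 31.1%, 32.0% and 33.7% in netrin-1 replicates 1, 2 and 3, higher by 4.10 percentage points (exact permutation p = 0.1, adjusted p = 0.12). The range within 5000 bp is 20% of the width of the table, so an even profile would hold about that share. The outermost range, from 20000 to 25000 bp, held 15.8% to 16.0% of all coverage in vector and 13.7% to 14.8% in netrin-1 libraries.

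**Figure D3:**
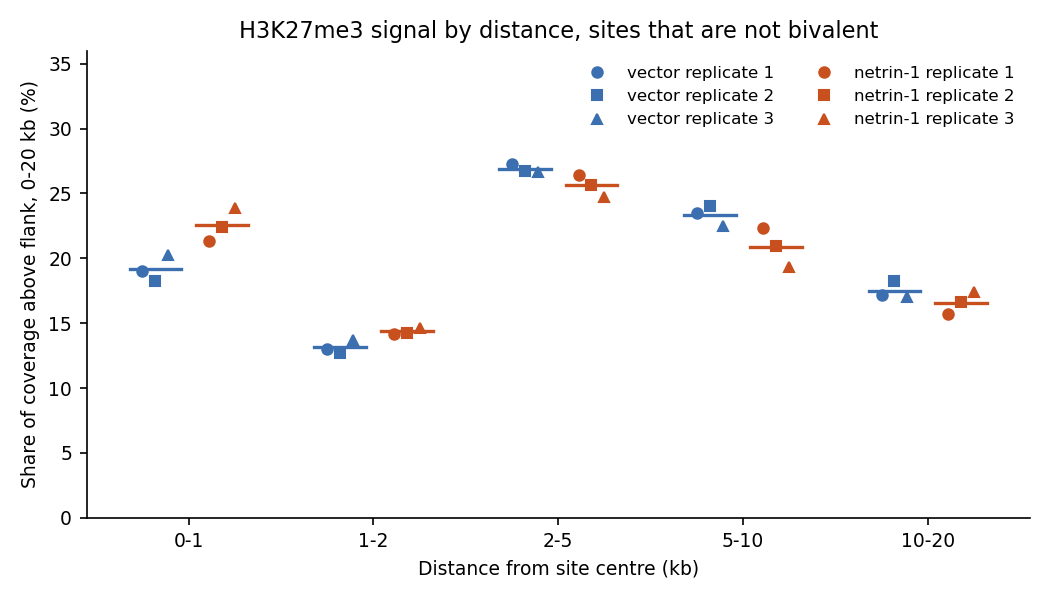
Share of the coverage above the flank within 20 kb (vertical axis, percent) that lies in each distance range in kb (horizontal axis), 1 point per library and a bar for the mean of each line. Netrin-1 libraries (orange) are higher than vector libraries (blue) within 1 kb, with 21.3% to 23.8% against 18.2% to 20.2%, and the lines overlap from 10 to 20 kb.

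The profile was close to symmetric over most of its width. Left means negative distances, and the strand of the sites is not stated. Within 5000 bp the log2 ratio of left to right coverage was -0.0047, 0.018 and 0.022 for the vector libraries (replicates 1, 2 and 3). It was 0.0048, 0.012 and 0.0067 for the netrin-1 libraries. The left side was higher in 5 of 6 libraries, by 0.0096 on average (exact two-sided sign-flip permutation p = 0.0625, 0.0833 after adjustment over 4 tests on all libraries). The lines did not differ beyond their spread (difference -0.0039 on the log2 scale, exact permutation p = 0.7).

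The direction of this small imbalance changed with distance. Within 1000 bp the right side was higher in 6 of 6 libraries, with log2 ratios from -0.022 to -0.0066 (exact sign-flip permutation p = 0.031, the smallest that 6 libraries can give). From 1000 to 2000 bp the left side was higher in all 3 vector libraries, from 0.014 to 0.031, and lower in all 3 netrin-1 libraries, from -0.011 to -0.0050. From 10000 to 20000 bp the ratio lay between -0.019 and 0.016.

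The largest imbalance was in the outermost range. From 20000 to 25000 bp the log2 ratio of left to right was 0.040, 0.056 and 0.093 for the vector libraries (replicates 1, 2 and 3). It was 0.12, 0.12 and 0.11 for the netrin-1 libraries. The left side was higher in 6 of 6 libraries (exact sign-flip permutation p = 0.031), and the netrin-1 values lay above the vector values (exact permutation p = 0.1). This range was tested for symmetry only after it had been seen. Left of the centre, coverage there was 1.50 ± 0.0324 (vector) and 1.72 ± 0.0548 (netrin-1), and right of it 1.44 ± 0.0179 and 1.59 ± 0.0542 (SD, n = 3 each). The left side was higher in all 6 libraries at 20 of the 25 distances beyond 20000 bp, and at 15 of the 100 distances up to 20000 bp. The right side was higher in all 6 libraries at 5 of the 125 distances of the whole profile. The lowest bin of each library lay on the right, between 22600 and 25000 bp. The flank used above averages both sides, and with the left or the right side alone the differences in width, decay length and share beyond 5000 bp kept their direction.

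**Figure D4:**
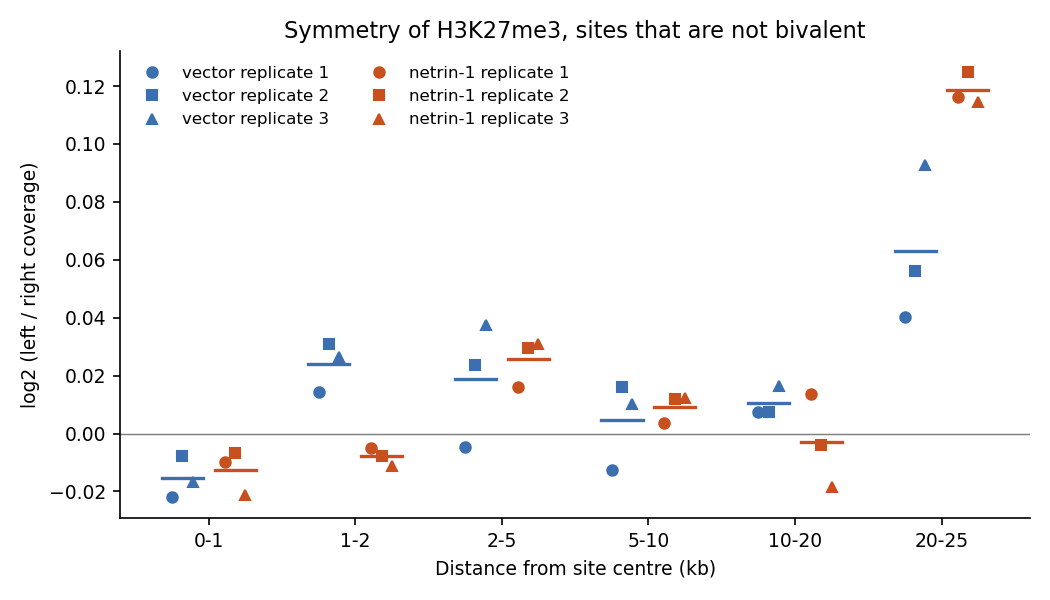
Log2 ratio of coverage left of the centre to coverage right of it (vertical axis) by distance range in kb (horizontal axis), 1 point per library and a bar for the mean of each line, with a grey line at 0. Values stay between -0.022 and 0.037 up to 20 kb and rise to 0.040 to 0.12 from 20 to 25 kb, with netrin-1 cells (orange) above vector cells (blue).

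Non-bivalent sites were then compared with bivalent H3K27me3 sites in the same 6 libraries. The bivalent table reaches 4000 bp to each side and implies 2590 sites, so both classes were cut to that reach, put into bins of 200 bp and set against their own level between 3500 and 4000 bp. The log2 ratio of coverage within 1000 bp to that level was 0.44, 0.43 and 0.51 at non-bivalent sites for vector replicates 1, 2 and 3, against 0.70, 0.59 and 0.97 at bivalent sites. In netrin-1 replicates 1, 2 and 3 it was 0.66, 0.76 and 0.91 at non-bivalent and 1.45, 1.89 and 2.51 at bivalent sites. The centre stood out less at non-bivalent sites in 6 of 6 libraries, by 0.73 ± 0.56 on the log2 scale (SD, n = 6; difference -0.73, exact sign-flip permutation p = 0.031, 0.0625 after adjustment over 4 tests). The difference did not pass 0.05 after adjustment. It was larger in netrin-1 cells, with means of 0.78 at non-bivalent and 1.95 at bivalent sites, than in vector cells, with 0.46 and 0.75. The SD over 6 libraries includes this difference between the lines. At 4000 bp, non-bivalent coverage above the flank beyond 20000 bp was still 39.0% to 42.9% of its central level in vector libraries. In netrin-1 libraries it was 28.8% to 36.2%. The level between 3500 and 4000 bp thus lay inside the non-bivalent domain, which lowers the ratio at these sites. Bivalent coverage beyond 4000 bp could not be seen.

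The width within this reach was steady at non-bivalent sites and varied at bivalent ones. Coverage above the level at 3500 to 4000 bp fell to 50% at 1410, 1389 and 1418 bp at non-bivalent sites in the vector libraries (replicates 1, 2 and 3) and at 1469, 1481 and 1325 bp in the netrin-1 libraries. At bivalent sites it did so at 2480, 2758 and 1540 bp in the vector libraries and at 1176, 762 and 453 bp in the netrin-1 libraries. The classes did not differ in 1 direction (mean difference -113 bp, exact sign-flip permutation p = 0.75), since non-bivalent sites were narrower in the 3 vector libraries and wider in the 3 netrin-1 libraries. With the bivalent bins from -350 to 150 bp left out of the central level, the mean difference was -745 bp (exact sign-flip permutation p = 0.125), and netrin-1 replicate 1 then also had narrower non-bivalent sites (-464 bp). Cut at 4000 bp, the non-bivalent widths of the 2 lines overlapped, so with this nearer flank the lines were not separated in width. With the flank beyond 20000 bp the same widths ran from 2072 to 3439 bp, so their steadiness was seen only with this cut.

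**Figure D5:**
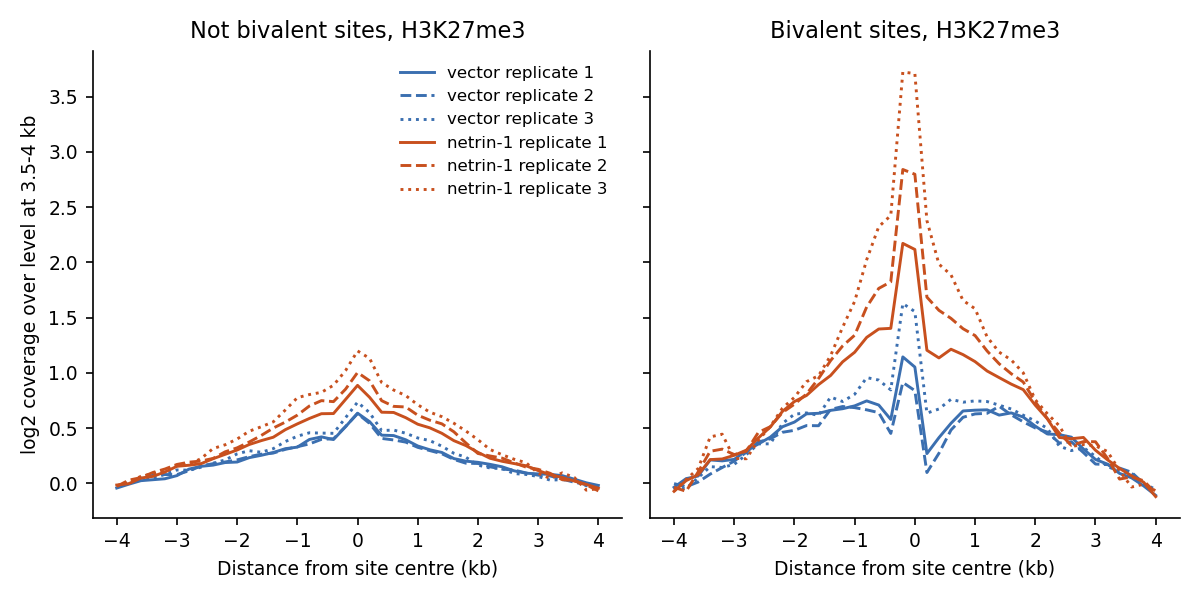
Log2 coverage of H3K27me3 over each library's own level at 3.5 to 4 kb (vertical axis) against distance from the centre in kb (horizontal axis) at non-bivalent sites (left panel) and bivalent sites (right panel), 1 line per library. Averaged within 1 kb, the lines reach 0.43 to 0.91 at non-bivalent and 0.59 to 2.51 at bivalent sites, with netrin-1 cells in orange and vector cells in blue.

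The same measure was taken for H3K4me3 at its own non-bivalent sites, which are other sites in other libraries. Coverage there fell to 50% at 490 to 719 bp in the 6 H3K4me3 libraries, against 1325 to 1481 bp for H3K27me3. The H3K27me3 profile was wider by 849 bp without overlap (exact two-sided permutation p = 0.0022 over 6 libraries against 6, the smallest this design allows, and 0.0087 after adjustment over 4 tests). Marks, antibodies and sites differ together in this comparison and cannot be told apart.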

How the data were processed

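The authors deposited tables of coverage signal averaged over sites, 1 column per library, so replicates were not pooled, per the file headers. Tools listed in the submitters' processing notes are BWA, Picard, MACS2 and HOMER, without versions, and the build is mm9. The scaling of the coverage, the treatment of duplicates and the choice of sites are stated in none of these sources. All values in each column were whole multiples of a step (tolerance 0.02 of a step). With scaling to 10 M tags and 100 bp fragments assumed, the smallest number of sites from 500 to 40000 that fitted all 6 columns was taken (fragment lengths 190 to 225 bp, scaling factors of up to 60 hundredths); 21970 sites also fitted the wide table, and 3885 and 5180, besides 2590, the bivalent one. The implied totals were 35.7 to 41.7 M tags, and fragment lengths 207 to 210 bp, in the 5 H3K27me3 libraries with a single solution. Counting error of a bin was then at most 0.286% in the wide H3K27me3 table and 0.555% in the bivalent one. This covers counting only.

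Profiles were averaged by distance and tested with exact permutation tests over libraries (Python 3.11.15, numpy 2.4.6, scipy 1.17.1). The fits of decay length were checked on simulated profiles with a single exponential decay, which did not describe the domain here. For the main fit the check used a shorter range, and the other measures of shape were not checked against a known value. No 2 columns shared a value in any bin. Same-numbered libraries of the 2 lines deviated from their group means together across bins, with correlations of 0.343, 0.116 and 0.550 for replicates 1, 2 and 3. All exceed the pairing threshold of 0.1, although vector replicate 2 correlated at 0.434 with netrin-1 replicate 1. Vector replicate 1 also passed that threshold with netrin-1 replicate 2, at 0.122. The values thus do not settle the pairing for replicates 1 and 2, and the labels give replicate numbers only. Pairing by number was used only as an alternative. Alternatives covered flanks, fit ranges, sides, single libraries and replicate pairs. Strand tag profiles and H3K4me3 at bivalent sites were not analysed here. The sites, ranges and measures were chosen with earlier results of these data known. No gene is named, because the tables average over sites; the text names 6 fixed distance ranges and positions of maxima, crossings and edges.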

Additional observations from a re-analysis of the deposited data

Results flagged for a closer look

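In 2 measures all libraries of one line moved one way and all of the other line the opposite way. From 1000 to 2000 bp the log2 ratio of left to right coverage averaged 0.024 ± 0.0085 over vector libraries and -0.0079 ± 0.0030 over netrin-1 libraries (SD, n = 3 each), a difference of -0.032 (exact permutation p = 0.1, the smallest possible). Within 4000 bp, non-bivalent sites were narrower than bivalent ones by 854 ± 651 bp in vector cells (difference -854 bp) and wider by 628 ± 300.3 bp in netrin-1 cells (SD, n = 3 each). With the bivalent bins from -350 to 150 bp left out of the central level, netrin-1 replicate 1 went the other way, at -464 bp. The lines differed in the former measure by 1482 bp (exact permutation p = 0.1). With this cut, non-bivalent widths lay between 1325 and 1481 bp in all 6 libraries. The change of sign thus went with the bivalent widths, from 453 to 2758 bp.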

How the results depend on the processing

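Of 151 recomputed values over 16 results, 138 kept their direction and their side of 0.05, which exact permutation of 3 libraries against 3 cannot pass. The difference in decay length reversed to 83.9 bp when fitted from 2000 to 15000 bp; the cause was not tested. The mean left to right ratio within 5000 bp reversed to -0.014 within 1000 bp and became 0.091, past 0.05, in the outermost 20000 to 25000 bp. The difference between lines in that ratio reversed to 0.055 in the outermost range. The outermost range was chosen after seeing the data, as were 2 other settings, with bins near the centre left out, which kept direction. With 1 library left out, the difference between lines in the ratio within 5000 bp ran from -0.012 to 0.0012, the latter without vector replicate 3. The class difference in width was -745 bp with the bivalent bins from -350 to 150 bp left out of the central level. With 1 library left out it ran from -310 to 138 bp and was above 0 without vector replicate 1 (78.6 bp) or 2 (138 bp). The class difference in centre height ran from -0.85 to -0.56, and 5 libraries cannot pass 0.05 (smallest p 0.0625). The width difference between lines ran from -1039 to -708 bp, and that in decay length from -1020 to -675 bp. The former was -532 bp with the highest bin as central level and -1503 bp when measured at 1/e of that level. The latter was -1417 bp with a fitted constant, and from 1000 to 8000 bp it was -812 bp with overlapping lines (exact permutation p = 0.2). Subtraction of the flank raised the log2 differences in coverage to between 0.65 and 1.04. With the replicate block, the differences were -843 bp in width, -853 bp in decay length, 0.46 in steepness and 0.70 in log2 coverage within 1000 bp, as without it, each with exact sign-flip p = 0.25, the smallest 3 pairs allow. The block leaves a difference of means unchanged by arithmetic, so it could not change a direction. The values recomputed with it are among the 138. The strand comparison was not run.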

Other observations

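A narrow summit stood on top of the broad domain. The bin at 0 bp was 1.16, 1.17 and 1.20 times the mean of the bins at 400 and 600 bp on both sides in vector replicates 1, 2 and 3, and 1.19, 1.21 and 1.26 times in netrin-1 replicates 1, 2 and 3. The lines overlapped. With both sides averaged, coverage went from 3.48 at 0 bp to 2.99 at 400 bp and 3.01 at 600 bp in vector replicate 1, and from 7.29 to 5.93 and 5.66 in netrin-1 replicate 3. In 2 of 6 libraries the bin at 600 bp was above the bin at 400 bp. The summit was noticed in the profiles and is given as values only.

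At the edges of the table the lines were closest on the right. In the last bin on the right, at 25000 bp, netrin-1 replicates 1, 2 and 3 exceeded the vector mean by 0.068, 0.088 and 0.12 on the log2 scale. In the last bin on the left, at -25000 bp, they exceeded it by 0.16, 0.24 and 0.29.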
